A study of Homo sapiens with 10 samples.

Results

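Rab GTPases are small membrane-bound switches, and the arrays described here carried probes for 60 human Rab genes and for REP15, whose product is an effector of RAB15. The Rab genes were taken by symbol alone, as RAB followed by a number and at most 1 letter, with no use of their values. REP15 was chosen by its rise in the comparison described below, so its values are given as a description and carry no test. Of these 61 genes, 44 were above background often enough to be tested (43 Rab genes and REP15), among 17379 tested genes in all.

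The samples were MEG-01 cells, an established human megakaryoblastic leukaemia line that is used as a model of the platelet-forming lineage and is not a platelet. One group received 200 nM of a precursor of the microRNA miR-1225-3p by nucleofection, an electrical transfection into the nucleus. The other group received 200 nM of a scrambled control RNA in the same way. RNA was taken from both groups at 24 h and labelled with 1 dye, and each group held 5 arrays from 5 experiments run at the same time. The labels call the arrays biological replicates but do not say that the cultures were separate passages, so the p-values measure the spread between these 5 and 5 samples. For the scrambled arrays the source label reads as no treatment, while the titles and the design text say that scrambled RNA was transfected, and the titles were followed.

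Rab proteins cycle between a GDP-bound form in the cytosol and a GTP-bound form on membranes, where they recruit effectors that tether, move and fuse vesicles. Exchange factors switch them on, GTPase activating proteins switch them off, and a geranylgeranyl lipid added with the help of escort proteins lets them sit in membranes. Each Rab marks a step of traffic, from the endoplasmic reticulum to the Golgi, through early, recycling and late endosomes, or out to the plasma membrane. In megakaryocytes and platelets they are known for the making and release of granules.

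The transfected microRNA is shown first because it is the treatment. The seed, bases 2 to 8 from the 5′ end, is in capitals. The sequence is from RefSeq, GRCh38.p14, chr16:2090195-2090216, minus strand.
hsa-miR-1225-3p: uGAGCCCCugugccgcccccag
Of 2545 mature human miRNAs in the same table, 0 others share this seed. The letters that pair with it in an RNA read GGGGCUC. Transcript sequence was not used here, so matches in the Rab transcripts were not counted.

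The start regions of REP15, the member that was higher, and of RAB8B and RAB3B, which were among the members that were lower, are shown for comparison. Each runs from 250 bases before to 50 bases after the RefSeq start (GRCh38.p14), and capitals mark GGGCGG on either strand. REP15 lies at chr12:27696197-27696496 on the plus strand, RAB8B at chr15:63189356-63189655 on the plus strand and RAB3B at chr1:51990651-51990950 on the minus strand.
REP15 promoter: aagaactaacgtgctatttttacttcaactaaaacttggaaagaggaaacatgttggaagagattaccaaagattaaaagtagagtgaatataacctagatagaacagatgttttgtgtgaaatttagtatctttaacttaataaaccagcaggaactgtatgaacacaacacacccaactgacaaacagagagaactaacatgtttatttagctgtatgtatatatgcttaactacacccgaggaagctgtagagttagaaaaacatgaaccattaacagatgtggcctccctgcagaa
RAB8B promoter: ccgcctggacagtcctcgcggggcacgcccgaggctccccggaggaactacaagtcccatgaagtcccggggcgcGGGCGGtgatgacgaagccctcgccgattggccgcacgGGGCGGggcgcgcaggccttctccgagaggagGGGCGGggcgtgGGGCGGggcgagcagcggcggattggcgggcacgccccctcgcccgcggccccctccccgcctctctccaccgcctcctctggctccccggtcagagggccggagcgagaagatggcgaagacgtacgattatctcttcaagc
RAB3B promoter: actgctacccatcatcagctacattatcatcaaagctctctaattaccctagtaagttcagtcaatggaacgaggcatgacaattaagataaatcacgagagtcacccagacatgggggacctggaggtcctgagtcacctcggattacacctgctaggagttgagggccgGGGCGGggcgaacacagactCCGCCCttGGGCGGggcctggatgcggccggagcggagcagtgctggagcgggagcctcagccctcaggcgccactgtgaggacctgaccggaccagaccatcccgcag
The REP15 window held 0 matches to GGGCGG, the RAB8B window 4 and the RAB3B window 3. Of all 35116 windows of this length, 45.0% held at least 1 match. Promoter entries were found for 36 of the 43 tested Rab genes, and 44 of their 54 windows held the letters (81.5%). The share was 77.8% of the 27 windows of Rab genes that passed the test and 85.2% of the 27 windows of those that did not. TATAAA, searched on both strands and sharing no overlap with GGGCGG, was in 2 of the 54 Rab windows (3.7%), in 0 of 1 REP15 window and in 11.5% of all windows. These are letter matches only, and no binding was measured.

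The arrays were not alike within a group. On the first principal component of all tested genes, which carried 69.6% of the variance, miR-1225-3p replicates 1 to 4 lay between -133.42 and -52.98 and the scrambled arrays between 48.65 and 79.87. The miR-1225-3p replicate 5 array lay at 56.74, among the scrambled arrays. All values are therefore given with this array, and results that rest on it are also given without it. Between 41.95% and 61.18% of the spots on an array were well above background and 0 were saturated. The arrays came from 2 slides, each with both groups. Of 12 megakaryocyte markers with a probe, 7 (ITGA2B, ITGB3, PPBP, GATA1, NFE2, FLI1 and TAL1) were above background on all 10 arrays, while PF4 was above it on 0 arrays. Of the 9 megakaryocyte markers tested, 3 were lower after miR-1225-3p and 0 higher, against 18.1% and 17% of all genes. The 3 log2 changes were -1.39 in ITGA2B, -0.60 in FLI1 and -0.43 in NFE2. The linear signals of the 9 tested megakaryocyte markers were summed on each array. The log2 of this sum was 12.91 to 13.19 after miR-1225-3p and 13.41 to 13.61 in scrambled arrays. The brightest marker weighs most in it, and NFE2 alone was at 12.27 to 12.64 and 12.76 to 12.92. Among 15 markers of other cell types, CD2, MS4A1, COL3A1 and DCN were above background on 0 arrays and 6 markers on all 10. For the 10 tested markers of other cell types the log2 of the summed signals was 13.28 to 13.64 after miR-1225-3p and 13.15 to 13.90 in scrambled arrays. Of these 10 markers, 3 (CD3E, FCGR3A and EPCAM) were higher after miR-1225-3p and 0 lower, against 17% and 18.1% of all genes. CD3E was above background on 4 of the 10 arrays, so it passed the filter on low signal through 1 group only. Its values were 3.86 to 7.08 after miR-1225-3p and 2.35 to 4.42 in scrambled arrays, and its call is not independent of the filter. The part of the markers of either list in the Rab results was not tested. In RNA from whole cultures, fewer cells of a kind and less RNA per cell cannot be told apart.

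Rab genes were lower after miR-1225-3p more often than higher. In limma's test across all 17379 genes, with Benjamini-Hochberg adjustment at 0.05, 17 of the 43 tested Rab genes were lower and 0 were higher. In the same adjusted fit 18.1% of all tested genes were lower, 17% were higher and 35% changed in either direction. At an unadjusted p under 0.05 limma gave 22 Rab genes lower and 1 higher (RAB17), and the share of all genes at that threshold is not given here. The methods' t-test on the same values gave 13 lower and 1 higher (RAB2A) after adjustment, against 11.7% and 15.2% of all genes. The 17 that limma called after adjustment were RAB8B, RAB2B, RAB6A, RAB40C, RAB3B, RAB8A, RAB11B, RAB13, RAB4B, RAB1B, RAB5A, RAB27A, RAB7A, RAB29, RAB10, RAB6B and RAB18. Of these, RAB8B, RAB3B and RAB40C passed the filter on low signal through the scrambled group alone. Among the 38 Rab genes kept through both groups 14 were lower and 0 higher, against 16.4% and 18% of all genes so kept. A separate fit took only probes above background on all 10 arrays, which left 32 Rab genes. There 15 were lower and 0 higher, against 19.1% and 19.9% of all genes in that fit. Of the 15, 12 were among the 17, with RAB2B read by another probe, and the others were RAB21, RAB31 and RAB40B. The log2 changes of the 17 ran from -2.78 to -0.49, and 8 of them were below -1, that is, over 2-fold lower. Of all 43, 33 had a change below 0, and the median change was -0.41 on the log2 scale against -0.06 over all genes.

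The size of the change in the dim genes depended on the background correction. With normexp, which fits a background to each array and adds an offset to every signal, 16 Rab genes were lower and 0 higher (16% and 14.4% of all genes), among them 14 of the 17. The change of RAB8B was then -0.97, that of RAB2B -1.26, that of RAB3B -0.40, that of RAB6B -0.39 and that of RAB4B -0.63, each more than 1.5 times smaller. RAB40C at -0.63, RAB11B at -0.31 and RAB29 at -0.30 lost their call, with adjusted p-values of 0.0553, 0.0813 and 0.0709. Of the 17, only RAB6A (-1.68), RAB2B and RAB8A (-1.16) were below -1 with normexp.

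The direction of the Rab genes depended in part on how the arrays were scaled. After cyclic loess, used for all values unless stated, the Rab median minus the median of all genes was -0.351 on the log2 scale. With the 75th percentile of each array as the scale the median of all genes moved from -0.06 to 0.16, with no scaling it moved to -0.26, while the Rab median minus it was -0.345 and -0.346. Under the 75th percentile 11 Rab genes were lower and 2, RAB2A and RAB4A, were higher, against 14.9% and 26.3% of all genes. The 6 of the 17 that lost their call there were RAB10 (-0.24), RAB7A (-0.19), RAB5A (-0.38), RAB1B (-0.43), RAB18 (-0.18) and RAB29 (-0.74). Under quantile normalization 14 were lower and 0 higher (14.4% and 20.9% of all genes). With no normalization 3 were lower (RAB8B, RAB2B and RAB3B) and 0 higher, against 6.28% and 1% of all genes. All 17 genes kept a negative change under every alternative in which they were tested, and 10 of them passed the test under both the 75th percentile and quantile normalization.

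**Figure D1:**
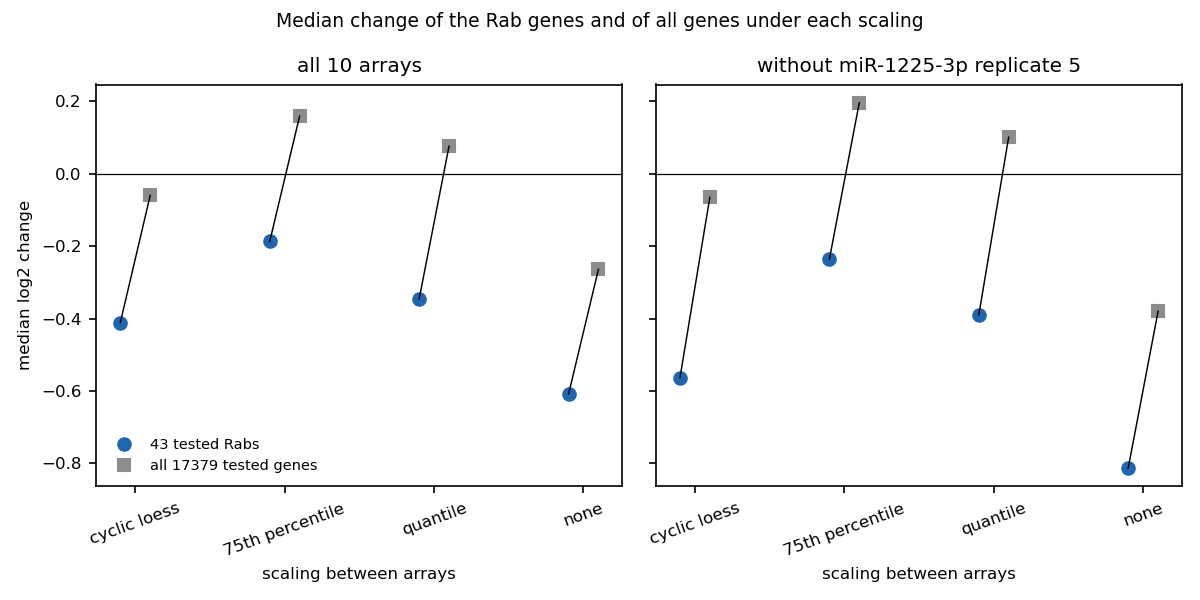
Median log2 change (miR-1225-3p minus scrambled, vertical axis) of the 43 tested Rab genes (circles) and of all 17379 tested genes (squares) under 4 scalings between arrays, with all 10 arrays on the left and without miR-1225-3p replicate 5 on the right. The medians of both sets move together with the scaling, and the circle stays below the square in each pair. The Rab median minus the median of all genes is -0.351 with cyclic loess and all arrays and -0.498 without replicate 5.

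The count rested on single arrays as well. Without miR-1225-3p replicate 2 or replicate 3 it fell to 5 lower Rab genes in either case, the same 5 both times (RAB10, RAB3B, RAB5A, RAB6B and RAB8A), while the share of all genes lower fell from 18.1% to 5.27% and 5.56%. Without miR-1225-3p replicate 4 it was 11 (9.56% of all genes), and without scrambled replicates 1, 2, 3 and 4 it was 10, 11, 9 and 10 (8.13% to 9.16% of all genes). Without miR-1225-3p replicate 5 the count rose to 22 lower and 2 higher, while 29% and 26.4% of all genes were then lower and higher. The added genes were RAB5B, RAB40B, RAB5C, RAB21 and RAB30 on the lower side and RAB17 and RAB2A on the higher side. RAB8A, RAB3B, RAB5A, RAB10 and RAB6B kept an adjusted p under 0.05 without each of the 10 arrays in turn. Within slide 1, which held 2 miR-1225-3p and 3 scrambled arrays, 11 were lower, against 14% of all genes. Slide 2 held the other 3 miR-1225-3p arrays, replicate 5 among them, and the other 2 scrambled arrays. Within slide 2 limma called 0 Rab genes and 0 of all genes. At an unadjusted p under 0.05 it gave 1 Rab gene lower, and the share of all genes at that threshold is not given here. All 17 genes had a negative change on both slides.

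**Figure D2:**
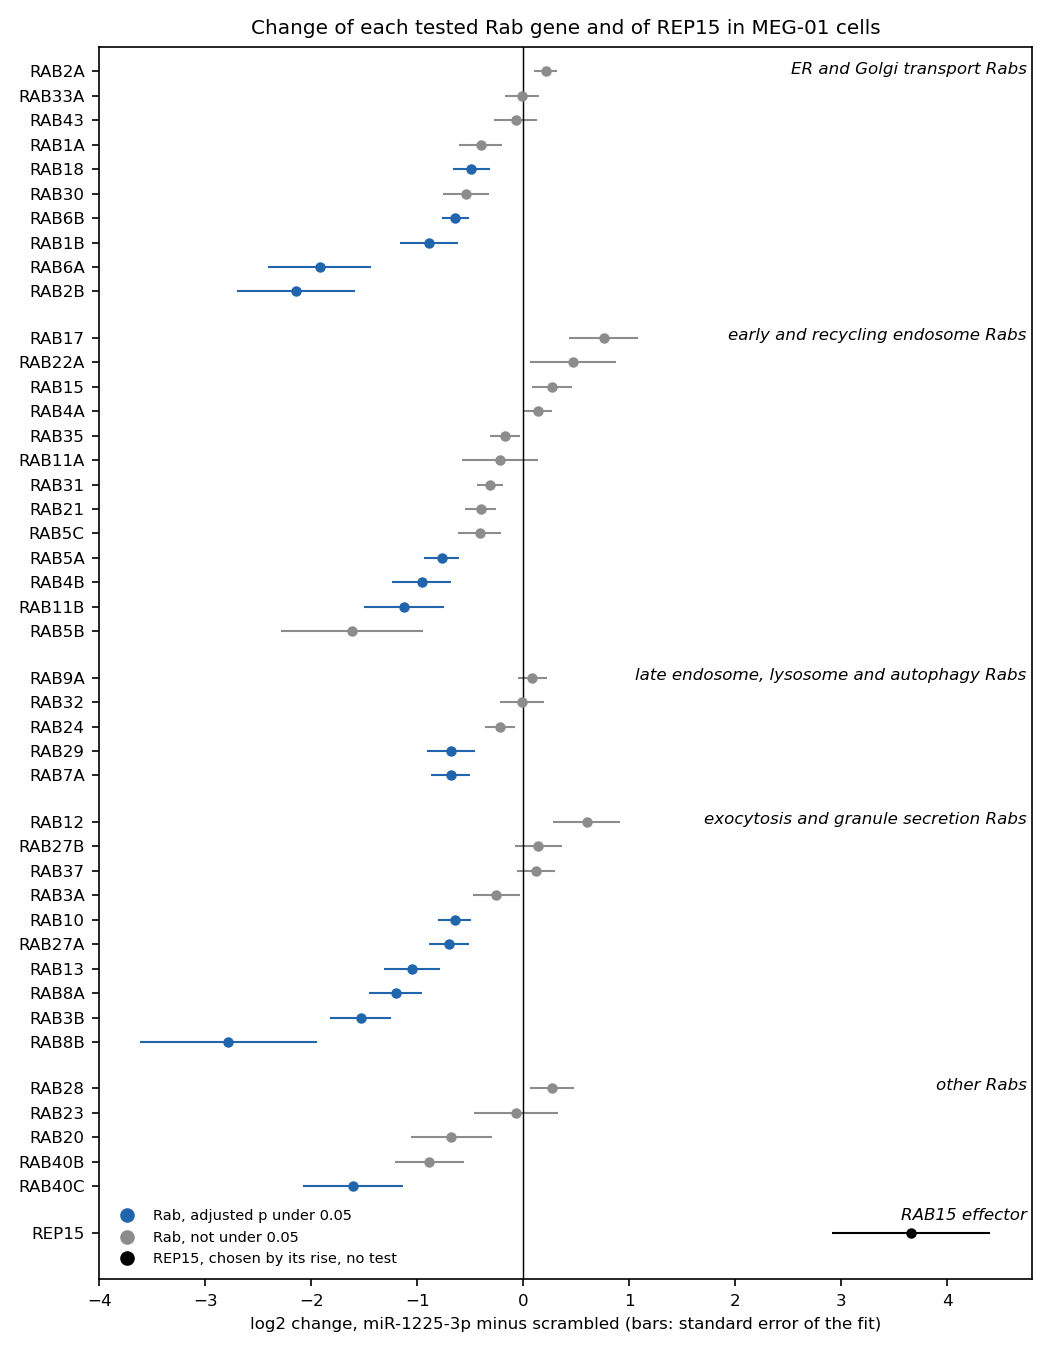
Log2 change after miR-1225-3p (horizontal axis, miR-1225-3p minus scrambled) of the 43 tested Rab genes, grouped by the traffic step they are known for, and of REP15. Points are fitted changes and bars their standard error over 5 and 5 arrays. The 17 genes under an adjusted p of 0.05 all lie left of 0, from RAB8B at -2.78 to RAB18 at -0.49, and REP15 lies at 3.66.

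REP15, the RAB15 effector, binds GTP-bound RAB15 and is known for a role in recycling of the transferrin receptor. Its log2 signals after miR-1225-3p were 10.26, 11.23, 12.93, 12.05 and 8.23 on replicates 1 to 5, against 7.78, 7.60, 7.26, 7.32 and 6.46 on the scrambled arrays. All 5 miR-1225-3p values lay above all 5 scrambled values, and replicate 5, the lowest of the group, was 0.45 above the highest scrambled array. The mean was 10.94 ± 1.81 against 7.28 ± 0.50 (SD, n = 5 each), a difference of 3.66 on the log2 scale, or 12.6-fold. Without replicate 5 the difference was 4.34, and it was 3.58 within slide 1 and 3.62 within slide 2. The probe was well above background on all 10 arrays.

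RAB15 itself, which acts in early and recycling endosomes, did not pass the test. Its log2 signals were 10.28, 10.69, 10.58, 11.10 and 10.24 after miR-1225-3p and 10.10, 10.28, 10.27, 10.26 and 10.63 in the scrambled arrays. The groups overlapped, with miR-1225-3p replicates 1, 3 and 5 inside the scrambled range. The difference was 0.27 ± 0.19 (SE) on the log2 scale, with a limma adjusted p of 0.260, and 0.36 without replicate 5 (adjusted p 0.118). RAB15 passed in 2 of 29 alternatives, with array weights and with the 75th percentile without replicate 5.

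Among the Rabs of exocytosis and granule secretion 6 of 10 tested genes were lower, namely RAB8B, RAB3B, RAB8A, RAB13, RAB27A and RAB10, against 18.1% of all genes. Of the 6, RAB8B and RAB3B passed the filter on low signal through the scrambled group only. The median change of this group of Rabs was -0.68. This and the groups that follow hold few genes, and their shares were not tested against each other or against all genes. RAB8B, which moves vesicles from the Golgi to the plasma membrane, read 6.69, 4.06, 3.28, 2.72 and 7.37 after miR-1225-3p and 7.64, 7.86, 7.52, 7.81 and 7.20 in the scrambled arrays. Every scrambled array was above replicates 1 to 4, and replicate 5 lay inside their range. The log2 change was -2.78 ± 0.83 (SE), with an adjusted p of 0.0305. Its signal stood well above background on 2 of the 5 treated and all 5 scrambled arrays, so the lowest values are near background and RAB8B passed the filter on low signal through the scrambled group only. With normexp its change was -0.97 (adjusted p 0.0244), smaller than that of RAB6A and RAB2B. RAB8B lost its call without miR-1225-3p replicates 2, 3 or 4 or scrambled replicates 1, 2, 3 or 4.

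RAB8A, the close relative of RAB8B in the same pathway, varied less between replicates 1 to 4. It read 9.25, 8.98, 9.18, 9.18 and 10.35 after miR-1225-3p, against 10.83, 10.73, 10.56, 10.46 and 10.38. The groups did not overlap, but replicate 5 was only 0.03 below the lowest scrambled array. The change was -1.21 ± 0.25, with an adjusted p of 0.0141, and it was -1.45 without replicate 5.

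RAB3B, a Rab of regulated secretion, read 4.35, 3.72, 3.44, 3.03 and 4.65 after miR-1225-3p and 5.23, 5.23, 5.71, 5.35 and 5.34 in the scrambled arrays. All 5 values were below all 5 scrambled values, replicate 5 included. Its change of -1.53 ± 0.29 had an adjusted p of 0.0136. The signal was low, well above background on 1 and 4 of 5 arrays, and RAB3B too passed the filter through the scrambled group only. With normexp the change was -0.40 (adjusted p 0.0241). RAB3B was 1 of 3 Rab genes called under all 3 other scalings, with RAB2B and RAB8B. As RAB3B and RAB8B passed the filter only through the group where they were higher, these calls are not independent of it.

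RAB27A and RAB27B, known for docking of secretory granules and, in platelets, for dense granule secretion, were measured by 1 probe each. RAB27A read 7.68, 7.64, 7.25, 7.04 and 7.94 after miR-1225-3p against 8.40, 8.36, 8.27, 8.10 and 7.94 in the scrambled arrays. Replicates 1 to 4 were below the scrambled range and replicate 5 was level with its lowest array. The change was -0.70 ± 0.19, with an adjusted p of 0.0224, and the call was lost without miR-1225-3p replicates 2 or 3 or scrambled replicates 1 or 2. RAB27B read 4.88, 4.26, 4.03, 4.21 and 4.22 against 3.60, 4.01, 4.25, 4.44 and 4.58, and the groups overlapped. It differed by 0.14 ± 0.22 (adjusted p 0.623) and was well above background on 1 miR-1225-3p and 3 scrambled arrays. The sign for RAB27B turned negative with no normalization (with and without miR-1225-3p replicate 5), with array weights, within slide 2 and without scrambled replicate 1.

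RAB13 and RAB10 carry vesicles to the cell surface. RAB13 had a mean of 9.41 ± 0.62 after miR-1225-3p and 10.46 ± 0.12 in the scrambled arrays (SD, n = 5 each), a change of -1.05 with an adjusted p of 0.0203. RAB10 had means of 9.84 ± 0.26 and 10.49 ± 0.16, a change of -0.65 with an adjusted p of 0.0173, and -0.24 under the 75th percentile (adjusted p 0.202). The RAB10 groups did not overlap, while RAB13 replicate 5 lay inside the scrambled range. The RAB13 call was lost without miR-1225-3p replicates 2 or 3. RAB3A, RAB37 and RAB12 gave log2 differences of -0.26, 0.12 and 0.60 and did not pass. The second RAB12 probe that passed the filter gave -0.94, opposite in sign.

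**Figure D3:**
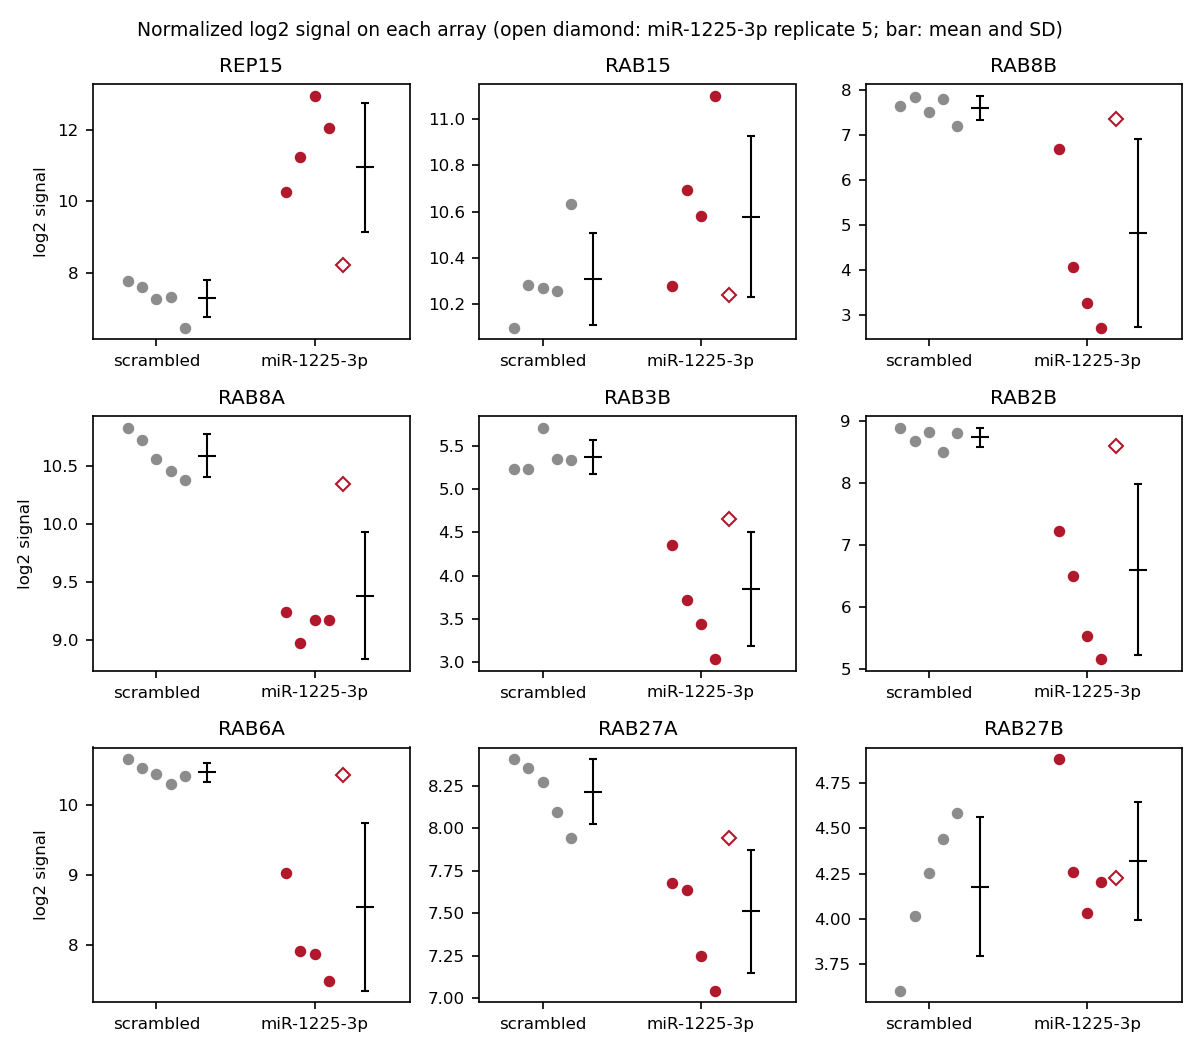
Normalized log2 signal (vertical axis, a separate scale in each panel) of 9 genes on the 5 scrambled (grey) and 5 miR-1225-3p (red) arrays, with replicates 1 to 5 from left to right in each group. The open diamond is miR-1225-3p replicate 5 and the bar gives the mean and SD. In REP15, RAB8A and RAB3B the groups do not overlap, in RAB8B, RAB2B, RAB6A and RAB27A only the diamond reaches the scrambled range, and in RAB15 and RAB27B the groups overlap.

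Rabs of endoplasmic reticulum and Golgi transport were lower in 5 of 10 tested genes (18.1% of all genes), with a median change of -0.52. RAB2B, which acts between the endoplasmic reticulum and the Golgi, read 7.22, 6.50, 5.53, 5.15 and 8.60 after miR-1225-3p and 8.89, 8.69, 8.83, 8.50 and 8.81 in the scrambled arrays. Replicate 5 lay inside the scrambled range and the other 4 below it. The change was -2.14 ± 0.56 (adjusted p 0.0211), a second RAB2B probe gave -1.77, and the call was lost without miR-1225-3p replicates 2 or 3. RAB2A, its near relative, differed the other way by 0.21 ± 0.11 (adjusted p 0.147) and reached an adjusted p of 0.0384 without replicate 5, with a difference of 0.26.

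RAB6A, the Rab of retrograde traffic through the Golgi, read 9.04, 7.91, 7.88, 7.49 and 10.43 after miR-1225-3p, against 10.66, 10.54, 10.45, 10.30 and 10.42. Those of replicates 1 to 4 were each more than 1 log2 unit below the scrambled arrays and replicate 5 was among them. The change was -1.92 ± 0.49, with an adjusted p of 0.0196, lost without miR-1225-3p replicates 2 or 3. RAB6B, its relative, read 6.55, 6.53, 6.65, 6.62 and 6.998 against 7.19, 7.37, 7.25, 7.40 and 7.32, with no overlap. Its change of -0.64 ± 0.13 had an adjusted p of 0.0139.

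RAB1B, needed for transport from the endoplasmic reticulum to the Golgi, fell by 0.89 ± 0.27 on the log2 scale (adjusted p 0.0322), and its second probe by 1.80. Under the 75th percentile its change was -0.43, with an adjusted p of 0.134. RAB18, known for lipid droplets and the endoplasmic reticulum, fell by 0.49 ± 0.17 and was the gene nearest to the threshold, with an adjusted p of 0.0498. The RAB18 groups did not overlap, yet it kept its call without only 2 of the 10 arrays in turn, as did RAB1B. A second RAB18 probe gave -0.16 (adjusted p 0.614), the mean of the probes gave -0.33 (adjusted p 0.210), and RAB18 lost its call in 21 of 29 alternatives, the 3 other scalings included. RAB1A gave -0.40 at 1 probe and 0.27 at the other, and neither passed. RAB30, RAB43 and RAB33A gave -0.54, -0.07 and -0.02 and did not pass.

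Among Rabs of early and recycling endosomes 3 of 13 were lower (23.08%), near the 18.1% of all genes, and the median change was -0.32. RAB5A, the Rab of early endosome fusion, read 9.67, 9.39, 9.21, 9.23 and 9.99 after miR-1225-3p and 10.11, 10.28, 10.39, 10.34 and 10.24 in the scrambled arrays. The groups did not overlap, and the change was -0.77 ± 0.17 with an adjusted p of 0.0152. Under the 75th percentile it was -0.38 (adjusted p 0.0572). RAB5B had the larger difference, -1.62 ± 0.67, but a wider spread and an adjusted p of 0.0796. It read 7.19, 6.29, 4.85, 3.51 and 7.46 against 7.65, 7.66, 7.52, 7.48 and 7.06, so replicates 1 and 5 overlapped the scrambled arrays, and without replicate 5 it passed (-2.01, adjusted p 0.0229). RAB5C gave -0.41 and did not pass.

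The RAB4 and RAB11 genes, which return cargo from endosomes to the surface and take part in platelet granule traffic, were lower in RAB4B and RAB11B and did not pass in RAB4A and RAB11A. RAB4B had means of 7.03 ± 0.63 after miR-1225-3p and 7.99 ± 0.16 in the scrambled arrays, a change of -0.96 with an adjusted p of 0.0272. RAB4A had means of 9.32 ± 0.23 and 9.19 ± 0.08, a difference of 0.13 with an adjusted p of 0.444. RAB11B read 5.46, 4.89, 4.09, 4.30 and 6.30 after miR-1225-3p against 6.37, 6.05, 6.32, 6.19 and 5.76, with replicate 5 inside the scrambled range. Its change was -1.13 ± 0.38 (adjusted p 0.0429), and the call held without 1 of the 10 arrays only, miR-1225-3p replicate 5. With normexp the RAB11B change was -0.31 (adjusted p 0.0813). RAB11A gave -0.22 ± 0.36 (adjusted p 0.644), with a sign that turned positive within slide 1 and without miR-1225-3p replicate 4. The RAB4A sign turned negative within slide 2 and with no normalization without replicate 5.

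The remaining endosomal Rabs RAB21, RAB31, RAB35, RAB22A and RAB17 gave -0.40, -0.32, -0.17, 0.47 and 0.76 and did not pass. RAB17, a Rab of epithelial transcytosis, was the highest of the 43 and read 5.66, 6.60, 5.98, 6.96 and 4.98 after miR-1225-3p against 5.02, 5.48, 5.26, 5.40 and 5.24. The first 4 were above the scrambled range and replicate 5 below it. Its adjusted p was 0.0923, and 0.00790 without replicate 5, where the difference was 1.02.

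Late endosome, lysosome and autophagy Rabs were lower in 2 of 5 tested genes (18.1% of all genes). RAB7A, which drives late endosomes to lysosomes, read 11.20, 11.04, 10.93, 10.99 and 11.88 after miR-1225-3p and 11.96, 11.92, 11.96, 11.81 and 11.80 in the scrambled arrays. Replicates 1 to 4 lay below the scrambled range and replicate 5 inside it, and the change was -0.68 ± 0.18 with an adjusted p of 0.0231. Under the 75th percentile it was -0.19 (adjusted p 0.306). RAB29, a Rab of the Golgi and lysosome, changed by -0.68 ± 0.23 (adjusted p 0.0424). That call was lost in 18 of 28 alternatives, among them the 3 other scalings and normexp (-0.30), and held without 2 of the 10 arrays in turn. RAB29 was the 1 called gene in which replicates 1 to 4 were not all below the scrambled range. RAB32, which with RAB38 serves lysosome-related organelles such as dense granules, read 8.33, 8.59, 8.73, 9.34 and 8.47 against 8.36, 8.53, 8.79, 8.94 and 8.89. The RAB32 groups overlapped, its difference was -0.01 ± 0.21 (adjusted p 0.971), and the sign changed in 11 of 29 alternatives. RAB24 and RAB9A gave -0.22 and 0.08 and did not pass.

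Of 5 tested Rabs outside these groups RAB40C alone was lower (20%), near the 18.1% of all genes. RAB40C, which carries a SOCS box and joins ubiquitin ligases, read 5.46, 4.53, 4.22, 4.25 and 6.69 after miR-1225-3p and 6.19, 6.16, 7.08, 6.57 and 7.19 in the scrambled arrays. Replicate 5 was inside the scrambled range and the change was -1.61 ± 0.47 with an adjusted p of 0.0283. Its signal stood well above background on 2 of the 5 treated arrays, and RAB40C passed the filter through the scrambled group only. With normexp the change was -0.63 (adjusted p 0.0553). RAB40B, RAB20, RAB23 and RAB28 gave -0.88, -0.68, -0.07 and 0.27 and did not pass. The second RAB28 probe that passed the filter gave -0.42, opposite in sign.

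**Figure D4:**
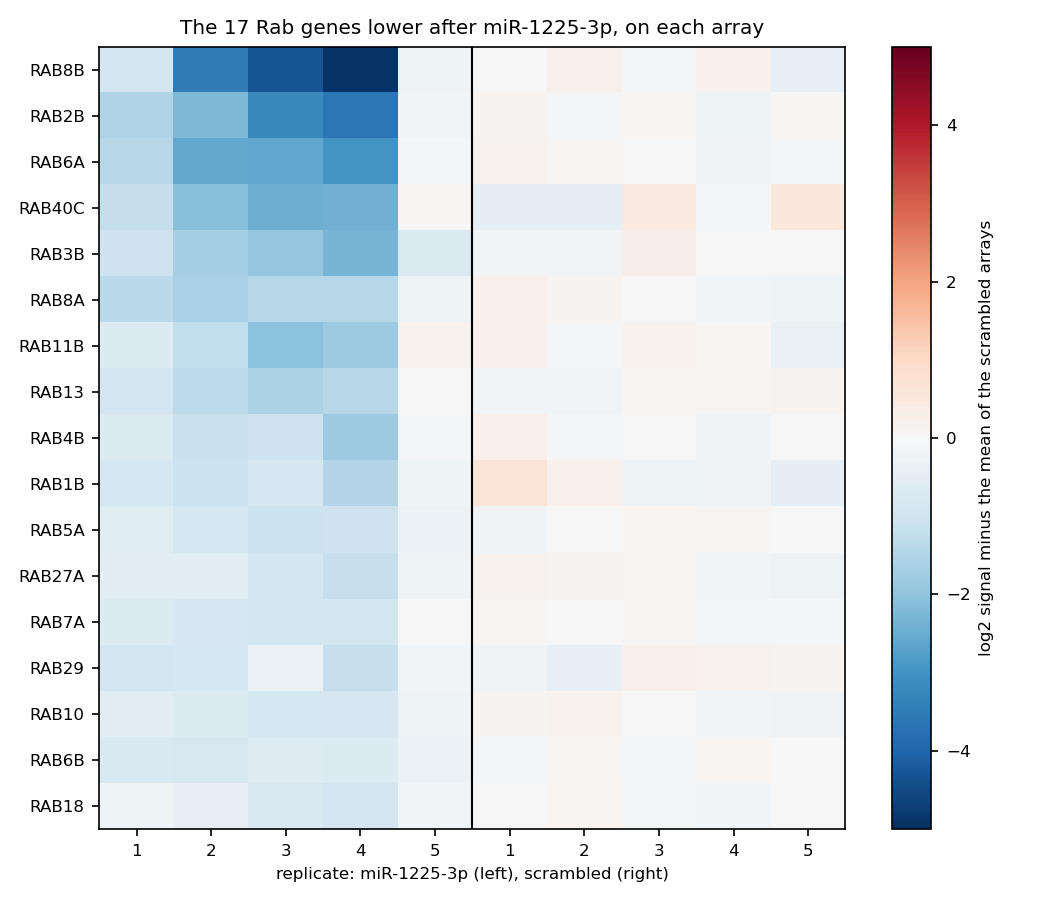
Log2 signal minus the mean of the scrambled arrays (colour, blue lower and red higher) for the 17 Rab genes that were lower after miR-1225-3p, ordered by their change, on each of the 10 arrays. Columns are replicates 1 to 5 of miR-1225-3p on the left and of scrambled on the right. The columns of replicates 1 to 4 are mostly blue, and replicate 5 lies inside the scrambled range in 11 of the 17 genes.

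Across the 17 lower genes, the same arrays set the size of the change. The median difference from the scrambled mean was -0.86, -1.11, -1.06 and -1.44 on miR-1225-3p replicates 1 to 4 and -0.15 on replicate 5. These genes were picked for being lower. Over all 43 tested Rab genes the medians were -0.37, -0.39, -0.58, -0.87 and -0.14. Replicates 1 to 4 all lay below the scrambled range in 16 of the 17, and replicate 5 lay below it in 6 (RAB3B, RAB8A, RAB5A, RAB10, RAB6B and RAB18). Those 6 are the genes whose groups did not overlap, 13.95% of the 43 tested Rab genes, near the 12.7% of all tested genes. For them the two-sided exact permutation test over arrays gave 0.00794, the smallest p it can give with 5 against 5. For the other 11 it gave 0.0159 to 0.0397. Groups that do not overlap give the smallest p by construction. All 17 were picked on the same arrays, so these unadjusted p-values are no further evidence. Of the 43 tested Rab genes 37 (86%) had the larger SD in the miR-1225-3p group, against 75.6% of all genes. Of the 17, 11 were well above background on all 10 arrays.

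Close relatives among the Rabs were set against each other by the difference of their changes, over 12 pairs, with exact permutation p-values adjusted over the pairs. The largest difference was 2.36 ± 0.67 (SE) on the log2 scale for RAB2A minus RAB2B, with an exact p of 0.0159 and an adjusted p of 0.0680. RAB8A minus RAB8B was 1.58 ± 0.78 (exact p 0.143, adjusted p 0.156). RAB4A minus RAB4B was 1.09 ± 0.25 and RAB27A minus RAB27B was -0.85 ± 0.31, with adjusted p-values of 0.0680 in the same permutation tests. None of the 12 pairs passed at 0.05, so no pair of relatives was shown to differ in its change. The smallest p this exact test can give is 0.00794, so 1 pair alone could not have passed after adjustment over 12 pairs. Cross-hybridization between relatives was not tested.

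Genes that act on Rab proteins were called in both directions, about as often as all genes. Of 139 listed regulators and effectors 113 were tested, and 24 were lower and 18 higher (37.17% called, against 35% of all genes). The split was 17 lower and 31 higher under the 75th percentile and 15 and 26 under quantile normalization, while all genes moved the same way, to 14.9% lower and 26.3% higher and to 14.4% and 20.9%. Without miR-1225-3p replicates 1, 2, 3 and 4 the count called fell from 42 to 25, 12, 14 and 16. It was 20, 21, 22 and 20 without scrambled replicates 1, 2, 3 and 4, and 65 without miR-1225-3p replicate 5. All genes lost and gained calls in the same fits.

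Genes of the lipid-adding and recycling machinery were called in both directions. RABGGTB, the beta subunit of Rab geranylgeranyl transferase, had a mean of 11.84 ± 0.31 after miR-1225-3p and 10.31 ± 0.14 in the scrambled arrays, higher by 1.53 ± 0.17 (SE) with an adjusted p of 0.00631 and no overlap between groups. RABGGTA, the alpha subunit of the same enzyme, differed the other way, by -1.57 ± 0.55 with an adjusted p of 0.0494. The RABGGTA call was lost in 18 of 28 alternatives, among them quantile normalization (adjusted p 0.0617) and the slide block (adjusted p 0.0745), and with normexp the change was -0.41 (adjusted p 0.155). With the mean of its probes RABGGTB was higher by 0.99 (adjusted p 0.0142). The escort proteins CHML and CHM, which present Rabs to the enzyme, were higher by 0.95 ± 0.23 and 0.85 ± 0.23. GDI2, which extracts Rabs from membranes, changed by -2.35 ± 0.57 (adjusted p 0.0178), with values of 6.86 to 10.23 against 9.94 to 10.24. CHM lies outside the rule for named genes and was added after its values were seen.

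Exchange factors were called in 8 of 33 genes, 6 lower and 2 higher (24.24% called, against 35% of all genes). MON1B, part of a complex that activates RAB7, changed by -3.85 ± 1.07 (adjusted p 0.0253), from 13.57 ± 1.43 in the scrambled arrays to 9.72 ± 2.31 after miR-1225-3p, with overlap. With the mean of the MON1B probes the change was -1.84 (adjusted p 0.0251). CCZ1, its partner in that complex, was higher by 0.60 ± 0.15 at its brightest probe (adjusted p 0.0204) and by 0.09 with the mean of its probes (adjusted p 0.792). MADD, an exchange factor for RAB3 and RAB27, changed by -1.48 ± 0.43, and RIC1, part of an exchange factor for RAB6, by 0.51 ± 0.15. RIC1 was at 0.27 with the mean of its probes (adjusted p 0.147). CCZ1 has a near-identical copy, CCZ1B, which its probe may also read.

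GTPase activating proteins were called in 11 of 31 genes, 6 lower and 5 higher (35.48%), and effectors in 17 of 42, 9 lower and 8 higher (40.48%), again against 35% of all genes. Among the called activating proteins TBC1D10B and TBC1D22B had the largest falls, with changes of -1.39 ± 0.44 and -1.02 ± 0.35, and TBC1D7 and RABGAP1L rose by 0.93 ± 0.22 and 0.77 ± 0.22. TBC1D10B was at -0.87 under the 75th percentile (adjusted p 0.0848) and TBC1D22B at -0.53 with normexp. With the mean of their probes TBC1D7 was at 0.50 (adjusted p 0.0358) and RABGAP1L at 0.11 (adjusted p 0.714). KIF20A, a kinesin that binds RAB6 and serves cell division, read 6.16 to 8.83 after miR-1225-3p and 9.05 to 9.43 in the scrambled arrays. It changed by -1.76 ± 0.41 with an adjusted p of 0.0165. MICALL2, an effector of RAB13 and RAB8, read 10.57 to 11.32 against 9.78 to 10.22, and was higher by 1.13 ± 0.17 with an adjusted p of 0.0127. PLEKHM2, which links lysosomes to kinesin, changed by -1.43 ± 0.46. It was well above background on 2 miR-1225-3p and all 5 scrambled arrays, so it passed the filter through the scrambled group only, and its call was lost in 17 of 28 alternatives, with normexp at -0.47 (adjusted p 0.105). GCC2, a golgin, changed by 0.99 ± 0.28, and by 0.23 with the mean of its probes (adjusted p 0.194). The 16 genes that the rule named in these 4 lists kept their sign under every alternative in which they were tested.

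**Figure D5:**
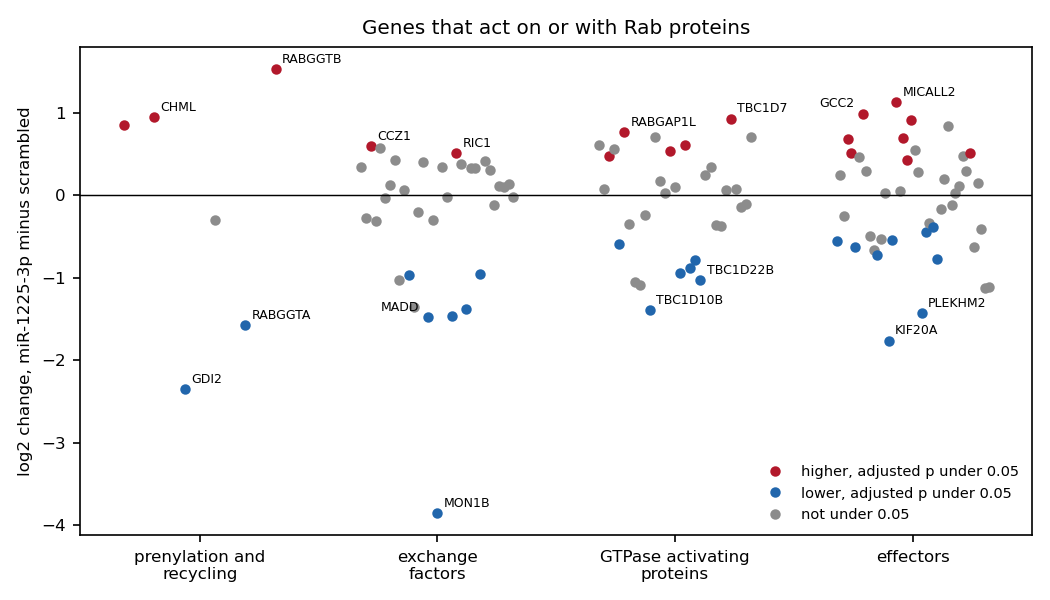
Log2 change after miR-1225-3p (vertical axis, miR-1225-3p minus scrambled) of 112 of the 113 tested genes that act on or with Rab proteins, in 4 lists, with genes in alphabetical order within a list. Red and blue points are higher and lower at an adjusted p under 0.05. The points spread to both sides of 0 in each list, from MON1B at -3.85 to RABGGTB at 1.53.

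The other 17 Rab genes on the array did not reach 3 arrays above background in either group and were not tested. They were RAB3C, RAB3D, RAB6D, RAB7B, RAB9B, RAB14, RAB19, RAB25, RAB26, RAB33B, RAB34, RAB36, RAB38, RAB39A, RAB39B, RAB41 and RAB42. RAB38, a Rab of lysosome-related organelles, was well above background on 1 miR-1225-3p and 2 scrambled arrays. RAB14 was above background on 2 arrays of each group, and RAB7B on 2 miR-1225-3p arrays and 0 scrambled arrays.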

How the data were processed

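Agilent 1-colour whole-genome arrays of RNA from MEG-01 cells were used, 5 per group. The authors deposited the scanner output of Agilent Feature Extraction, version 10.7.3.1 per the labels, whose processed signal is an intensity on a linear scale, already corrected for background. The authors also deposited a table of log2 values after their own filtering and cyclic loess, which served as an alternative here.

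From the scanner files, log2 processed signals of 58717 non-control spots were normalized between arrays by cyclic loess (3 iterations) with limma 3.58.1 in R 4.3.3. Spots with an outlier flag were treated as missing, and the remaining spots of each probe were averaged. Probes with a signal well above background on 3 or more arrays of at least 1 group were kept. Symbols came from a RefSeq table (GRCh38.p14) by accession, for 24910 of 42405 probes, and a gene was its kept probe of highest mean signal. Of 65 RefSeq symbols of the required form, RAB1C, RAB40A, RAB44 and RAB6C had no matched probe here. The comparison used limma's lmFit and eBayes, with Benjamini-Hochberg adjustment over all 17379 genes, and exact permutation tests over arrays. Normexp, with an offset of 50, was run on the median signal. The number of arrays limits the precision. The fit was tested on simulated data.

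The named genes were REP15, RAB15, the Rabs known for platelet granules (RAB27A, RAB27B, RAB32, RAB38, RAB3B, RAB8A, RAB4A and RAB11A), the 6 largest rises and falls among called Rabs, Rabs with probes called in both directions (there were 0), and the 2 largest rises and falls among called genes of each list of regulators and effectors. Other Rabs are given by counts, ranges and single values in their group. Some listed genes enter the counts of their lists and are not reported singly here. The members and lists were chosen with earlier results of these data known. The alternatives were other scalings, value sources, filters, probe rules, tests, blocks and arrays left out. Further settings, 3 scalings without miR-1225-3p replicate 5, were added after seeing the data.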

Additional observations from a re-analysis of the deposited data

Results flagged for a closer look

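In 5 of 46 sets of 5 arrays, 1 array lay far from its nearest neighbour relative to the whole range, beyond Dixon's 95% critical value of 0.71, while chance gives about 1 in 20, or 2.3 of 46. In RAB8A, RAB6B and RAB7A it was miR-1225-3p replicate 5, at log2 signals of 10.351, 6.998 and 11.878, each the highest of its group. In RAB27B it was miR-1225-3p replicate 1, at 4.881, and in RAB3B scrambled replicate 3, at 5.715, also the highest of their groups.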

How the results depend on the processing

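The Rab median stayed below the median of all genes under every alternative run. The difference of REP15 ran from 3.13 to 4.72, which is a description only, as REP15 was chosen by its rise on these arrays. Counts moved most. Rab genes called numbered 3 with no normalization (all lower; all genes 6.28% lower and 1% higher), 11 with no filter (10 lower and 1 higher, RAB7B; all genes 4.31% and 5.36%), 31 with array weights (25 lower and 6 higher; all genes 35.8% and 33.5%), 11 within slide 1 (all lower; all genes 14% and 11.9%) and 0 within slide 2 (0 of all genes), so the counts moved with those of the whole array. The 75th percentile gave 11 lower and 2 higher. The methods' t-test on the same values gave 13 lower and 1 higher, RAB2A, against 11.7% and 15.2% of all genes. Regulators and effectors called were 5 with no normalization, 19 with no filter, 75 with array weights and 0 within slide 2. At an unadjusted p under 0.05, slide 2 gave 1 Rab gene and 5 regulators and effectors. Leaving out 1 array at a time gave 5 to 24 Rab genes called, 5 to 22 lower and 0 to 2 higher, and 12 to 65 regulators and effectors.

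With the replicate number as a replicate block, limma called 0 Rab genes, 0 lower, and 0 regulators and effectors. It called 0 of all genes too. At an unadjusted p under 0.05 it gave 22 Rab genes lower, 2 higher and 49 regulators and effectors. The share of all genes at that threshold is not given here, so these counts are no result about the Rab genes. Same-numbered arrays did not deviate together (correlations of -0.40 to 0.07), so the numbers were not taken to pair them.

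Scalings with miR-1225-3p replicate 5 left out were chosen after seeing the data. The 75th percentile gave 17 Rab genes lower and 8 higher, against 23.9% and 37.1% of all genes. Quantile normalization gave 19 lower and 4 higher, against 23.5% and 32% of all genes. Regulators and effectors called numbered 70 under the 75th percentile and 25 under no normalization. With no normalization 25% of all genes were lower and 2.28% higher.

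Some small differences changed sign, and the cause was not tested. RAB32 was at 0.255 with the 75th percentile, 0.116 with quantile normalization, 0.112 within slide 2 and 0.371 and 0.207 with the first 2 scalings without replicate 5. It lay between -0.172 and 0.081 with 1 array left out. RAB27B was at -0.379 with no normalization (-0.522 without replicate 5), -0.032 with array weights, -0.073 within slide 2 and -0.002 to 0.243 with 1 array left out. RAB11A was at 0.559 within slide 1 and between -0.40 and 0.064 with 1 array left out. RAB4A was at -0.045 within slide 2 and -0.053 with no normalization without replicate 5. RAB8B, RAB3B and RAB40C dimmed to near background after miR-1225-3p, which limits how well their change is measured.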
